A study of Mus musculus with 11 samples.

Results

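The insulin-like growth factor (IGF) genes described here are 10 listed genes: the ligand Igf1, the receptors Igf1r, Insr and Igf2r, and the binding proteins Igfbp2, Igfbp3, Igfbp4, Igfbp5, Igfbp6 and Igfbp7. They were chosen by name, and 29 of the 45101 probe sets of the array carried their symbols. Of those 29 probe sets, 27 passed the filter on dim signals, which asked that 2 or more arrays exceed their own median signal, and all 10 genes were among the 13614 genes tested. The 11 samples came from wild-type CD-1 mice, an outbred stock, at E15.5 (Theiler stage 23). No treatment or allele separates the groups, which are 4 compartments captured by laser from frozen tissue. Cortical collecting duct (plotted as CCD) has 2 arrays, while early proximal tubule (EPT), smooth muscle of the ureter (USM) and its lining, the urothelium (URO), have 3 each. Every sample pooled approximately 50 sections from 5 kidneys and its RNA was amplified in 2 rounds. Nothing in the labels says that pools came from separate animals, so the p-values rest on spread from pool to pool, some of which may be technical, and the small number of arrays limits the precision.

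IGF ligands act on 2 related tyrosine kinase receptors, Igf1r and Insr, which signal through insulin receptor substrates to the PI3K, AKT and mTOR kinases. Igf2r, the cation-independent mannose 6-phosphate receptor, binds Igf2 and carries it to the lysosome, and it also sorts lysosomal enzymes there. The secreted binding proteins hold IGFs in the extracellular space, and proteases that cleave them release the ligand. In the fetal kidney IGFs are known as growth factors made largely by mesenchyme and received by epithelium.

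The sequences shown are the promoters of the 3 listed genes called in smooth muscle in the results that follow, although for Igf2r the arrays overlapped and the call depended on the setting. RefSeq promoter entries on the GRCm38.p6 build were matched for 9 of the 10 genes (not Insr), and the 250 bases before the annotated start are printed 5′ to 3′ on the gene's own strand. Capitals mark the letters CACGTG and the GC box letters GGGCGG, searched on both strands, where the letters GGGCGG of neighbouring boxes may run together. TATAAA and the CArG box, the motif of serum response factor, were searched too, and neither was in the windows shown.
Igf1 (chr10:87860861-87861110, plus strand): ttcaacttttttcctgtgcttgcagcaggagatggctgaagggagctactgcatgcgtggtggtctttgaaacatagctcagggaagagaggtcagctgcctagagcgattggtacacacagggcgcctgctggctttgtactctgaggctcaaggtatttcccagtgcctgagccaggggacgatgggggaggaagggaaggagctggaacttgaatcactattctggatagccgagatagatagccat
Igf2r (chr17:12769707-12769956, minus strand): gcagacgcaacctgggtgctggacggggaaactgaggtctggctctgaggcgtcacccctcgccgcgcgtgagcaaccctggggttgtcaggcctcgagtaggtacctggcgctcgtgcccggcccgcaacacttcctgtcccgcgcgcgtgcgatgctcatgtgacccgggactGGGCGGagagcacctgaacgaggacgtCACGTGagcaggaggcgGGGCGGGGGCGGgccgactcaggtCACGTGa
Igfbp5 (chr1:72874866-72875115, minus strand): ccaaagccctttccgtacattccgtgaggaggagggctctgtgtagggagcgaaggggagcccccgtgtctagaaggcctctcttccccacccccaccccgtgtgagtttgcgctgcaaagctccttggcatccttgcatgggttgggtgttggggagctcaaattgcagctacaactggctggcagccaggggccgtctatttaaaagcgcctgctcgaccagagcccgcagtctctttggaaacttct
The Igf2r window held 2 copies of CACGTG, the first bases of which lay 48 and 7 bases before the start, and 3 GC boxes. CACGTG was in 6.02% and the GC box in 32.7% of all 32851 promoter windows of the same length. The windows of Igf1 and Igfbp5 held none of the 4 motifs, and the shares of TATAAA and the CArG box were 12.4% and 1.47%. A match is a description of these letters and not of binding. In the same RefSeq table Igfbp2 and Igfbp5 are neighbours among protein-coding genes on chromosome 1, and Igfbp3 lies next to Igfbp1 on chromosome 11.

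The values are log2(signal + 55), so 1 unit is a doubling of a bright signal and less than that for a dim one. A gene was called when limma gave a Benjamini-Hochberg adjusted p under 0.05 over all genes of the comparison and its log2 fold change, in either direction, was 1 or more. The marker list of each labelled compartment had its highest summed signal in the arrays of that compartment. The sum of 7 smooth muscle markers was 223200 to 285160 in smooth muscle and 2720 to 63213 elsewhere. That of 7 proximal tubule markers was 111090 to 152540 in proximal tubule and 1019 to 9997 elsewhere. The 7 collecting duct markers summed to 71310 and 71937 in collecting duct against 1578 to 40317 elsewhere, and the 7 urothelial markers to 15691 to 65082 in urothelium against 983 to 4224 elsewhere. Single markers did not all separate their compartment. Gata3, Scnn1g, Ret and Wnt11 overlapped for collecting duct, Upk1a, Upk2 and Krt5 for urothelium, and Des for smooth muscle. The remaining markers of these lists did separate. Upk1a was 7.49 to 8.15 in urothelium and 8.05 to 8.14 in smooth muscle. In the urothelial arrays the smooth muscle sum was 63213, 38679 and 10189 in replicates 1, 2 and 3. The collecting duct sum was 19918, 35117 and 40317, and in replicate 3 it exceeded the urothelial sum of 15691. The proximal tubule sum was 9997, 2137 and 8601. The sum of 6 nephron progenitor markers was 1739, 1560 and 5198, and that of 4 podocyte markers 4688, 2492 and 12798. The part of such cells in the values below was not tested. Urothelium replicate 2 stood apart for the IGF genes: it had the lowest level of its compartment for 8 of the 10 and the highest for Igfbp5. Its Gapdh 3' to 5' signal ratio was 55.3, against 6.79 to 29.7 on the other 10 arrays. Its actin 3' to 5' ratio did not stand apart, at 5.43 against 5.07 to 13.52 on the other 10. A part of this array's RNA quality in the values below was not tested. A date-like part of the sample names splits the arrays into 4 label batches whose meaning is not stated, and urothelium shares none with collecting duct or proximal tubule.

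**Figure D1:**
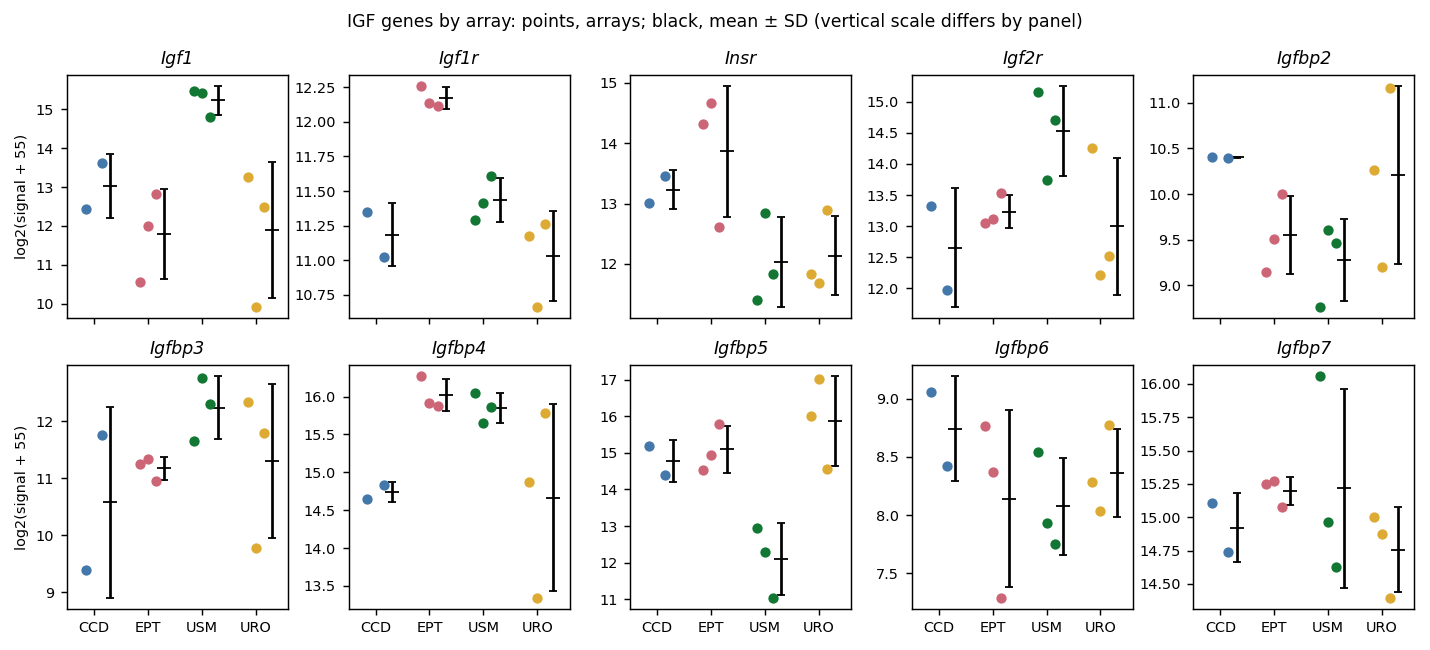
Level of each listed gene as log2(signal + 55) on the vertical axis, by compartment on the horizontal axis. Each point is 1 array, and the black bars give the mean ± SD of 2 collecting duct arrays or 3 arrays of the other compartments. The smooth muscle arrays lie above all others for Igf1 (14.80 to 15.48) and below all others for Igfbp5 (11.04 to 12.96).

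Ureteral smooth muscle had the highest mean level of Igf1 and Igf2r, the latter with overlapping arrays, and the lowest of Igfbp5. There 3 of the 10 genes were called against the mean of the remaining compartments, where 15.2% of all genes were called. Of the 3, Igf1 and Igf2r were higher (6.05% of all genes were called higher) and Igfbp5 was lower (9.12% were called lower). The median log2 fold change of the 10 genes was 0.12, against -0.07 over all genes tested. The arrays of smooth muscle did not overlap with the other 8 for 2 of the 10 genes, and 10.3% of all genes showed such a separation. In the same test by limma 0 of the 10 genes were called in proximal tubule (4 at an unadjusted p under 0.05, against 29.7% of all genes; 15.9% of all genes were called). Likewise 0 were called in collecting duct (0 at an unadjusted p under 0.05, against 13.4% of all genes, with 2.04% called) and 0 in urothelium (2 at an unadjusted p under 0.05, against 16.0% of all genes, with 2.37% called).

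**Figure D2:**
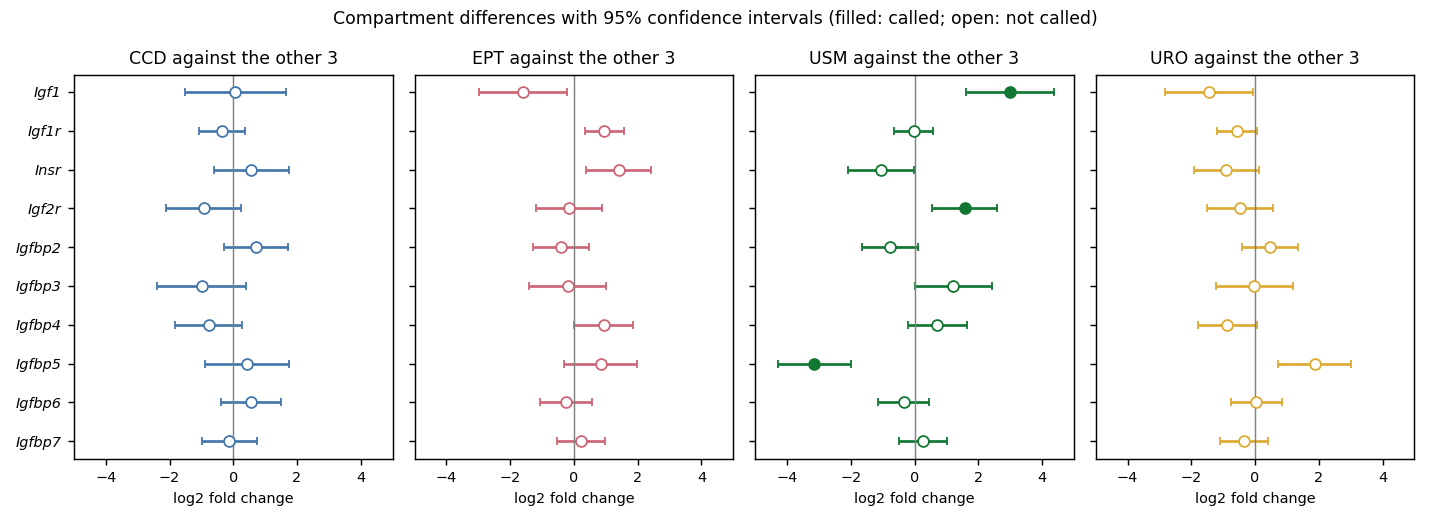
Log2 fold change of each compartment against the mean of the remaining 3, weighted equally, on the horizontal axis, for the 10 listed genes on the vertical axis. Bars are 95% confidence intervals of limma and filled circles mark called genes. The filled circles are Igf1 (2.99), Igf2r (1.57) and Igfbp5 (-3.15) in smooth muscle.

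Igf1 encodes the secreted growth factor IGF-I. Its level was 15.48, 15.42 and 14.80 in smooth muscle replicates 1, 2 and 3, and 12.45 and 13.61 in collecting duct replicates 1 and 2. It was 10.55, 12.0 and 12.83 in proximal tubule and 13.26, 9.92 and 12.50 in urothelium, each in replicate order. Smooth muscle was thus highest without overlap, and the other 3 compartments overlapped with each other. The log2 fold change in smooth muscle was 2.99 ± 0.64 (SE, n = 3 against 8), with a limma adjusted p of 0.00588 and a 95% confidence interval of 1.61 to 4.37. Against single compartments the difference was called for proximal tubule (proximal tubule minus smooth muscle -3.44, limma adjusted p = 0.00614) and for urothelium (smooth muscle higher by 3.34, adjusted p = 0.0159). The latter adjusted p was 0.0544 without smooth muscle replicate 1 and 0.0534 without replicate 2. Against collecting duct, the next in order, the log2 difference (collecting duct minus smooth muscle) of -2.20 (95% confidence interval -4.05 to -0.35) was not called (adjusted p = 0.156). The order below smooth muscle was collecting duct, urothelium and proximal tubule, and neither of those neighbouring pairs was called.

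All 4 probe sets of Igf1 had their highest mean in smooth muscle, and 3 of the 4 were called there in a fit over all 29565 probe sets that passed. Those 3 had log2 fold changes of 2.23, 3.11 and 2.99, and their smooth muscle arrays did not overlap with the rest. For 1434413_at (3.11, limma adjusted p = 0.0482) the margin was narrow, with smooth muscle replicate 1 at 11.75 and urothelium replicate 3 at 11.62. The fourth, 1452014_a_at, reached 9.49, 9.51 and 9.16 in smooth muscle replicates 1 to 3 and was higher still in urothelium replicate 3, so its groups overlapped. Probe set 1419519_at was also lower in proximal tubule by a called log2 fold change of -1.71 ± 0.42 (limma adjusted p = 0.0201), while for the gene as a whole the proximal tubule value was -1.59 ± 0.64 (adjusted p = 0.112). Without urothelium replicate 2 that gene value became -1.92 and was called (adjusted p = 0.016).

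Within label batches smooth muscle minus urothelium was 3.59 and 2.22 for Igf1 in batches 1 and 2, each with 1 smooth muscle array. In batch 4, with 1 array of each, collecting duct minus smooth muscle was -2.97 and proximal tubule minus smooth muscle was -4.86. The summed signal of 9 stroma and fibroblast markers was, like Igf1, highest in smooth muscle. Over the other arrays its order differed from that of Igf1. That sum was 429310 to 551480 in smooth muscle, 60813 and 105980 in collecting duct, 42280 to 65703 in proximal tubule, and 151450, 76358 and 134590 in urothelium replicates 1, 2 and 3. All 9 of these markers were above the array median in smooth muscle, and 7 to 9 of them in the other arrays. Foxd1 was 9.35 to 10.39 in smooth muscle and 11.20 in proximal tubule replicate 3. Pdgfrb was 11.40 to 11.88 in smooth muscle and 12.6 in urothelium replicate 3. The other markers of this list were higher in every smooth muscle array than in any other array. The part of stromal cells in the Igf1 result was not tested. The 7 markers of macrophages and leukocytes, cells that make Igf1 in many tissues, summed to 1550 to 1879 in smooth muscle and 1682 to 8469 in the other arrays. In smooth muscle 2 to 3 of these 7 were above the array median, and the part of these cells was not tested. In such pooled tissue a smaller share of one cell type and less RNA per cell cannot be told apart.

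Among the receptors, the leading differences were Igf2r in smooth muscle and, short of a call, both tyrosine kinase receptors in proximal tubule. Igf2r was 15.16, 13.74 and 14.71 in smooth muscle replicates 1 to 3, 13.33 and 11.98 in collecting duct, 13.05, 13.12 and 13.54 in proximal tubule and 14.26, 12.21 and 12.52 in urothelium. Smooth muscle and urothelium overlapped, since urothelium replicate 1 lay above smooth muscle replicate 2. The log2 fold change in smooth muscle was 1.57 ± 0.48 (SE, n = 3 against 8, limma adjusted p = 0.0406). This call was lost in 13 of 21 alternative settings, with adjusted p from 0.01 to 0.363 over all 21. It was lost without single arrays (adjusted p = 0.196 without smooth muscle replicate 1, 0.136 without replicate 3, 0.095 without collecting duct replicate 2, 0.062, 0.066 and 0.0504 without proximal tubule replicates 1, 2 and 3, 0.0561 and 0.0591 without urothelium replicates 2 and 3). With label batch as a fixed block the value fell to 0.94 (adjusted p = 0.363). No pair of compartments was called for Igf2r (limma adjusted p = 0.1 for smooth muscle with collecting duct, 0.135 with proximal tubule and 0.138 with urothelium). Within label batches smooth muscle minus urothelium was 2.34 and 0.90 in batches 1 and 2. In batch 4 collecting duct minus smooth muscle was -0.41 and proximal tubule minus smooth muscle -0.69. The second Igf2r probe set, 1424112_at, did separate: smooth muscle lay at 12.38, 11.41 and 13.11 and the other 8 arrays at 8.82 to 11.18, a difference of 2.04 ± 0.57 (adjusted p = 0.0385).

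Igf1r, the main receptor for IGF-I and IGF-II signals, was 12.26, 12.14 and 12.11 in proximal tubule replicates 1 to 3. It was 11.35 and 11.02 in collecting duct, 11.29, 11.41 and 11.61 in smooth muscle and 11.18, 10.66 and 11.26 in urothelium. The proximal tubule arrays lay above the other 8 (1 of the 10 genes separated in this way there, against 12.5% of all genes). The log2 difference was 0.95 ± 0.29 (SE, n = 3 against 8). That difference passed the adjusted p (0.0391 by limma) but not the size asked of a call, and it was 1.01 and called without collecting duct replicate 1 (adjusted p = 0.0462). Against urothelium alone it was 1.14 ± 0.35 (adjusted p = 0.0497), a call lost in 18 of 21 alternative settings (adjusted p from 0.0341 to 0.621 over them), among them the removal of any 1 of the 11 arrays. The 5 probe sets of Igf1r did not run alike: 4 had a positive log2 fold change in proximal tubule (0.44 to 1.47) and 1428967_at a negative one (-0.23 ± 0.41). None was called against the other compartments together in the probe set fit. Against smooth muscle alone, 1446303_at was called higher in proximal tubule (2.30 ± 0.65, limma adjusted p = 0.0316). That probe set was dim, above the array median in 3 of 11 arrays.

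Insr, the insulin receptor, was 14.31, 14.66 and 12.62 in proximal tubule replicates 1 to 3, 13.01 and 13.46 in collecting duct, 11.40, 12.85 and 11.84 in smooth muscle and 11.84, 11.68 and 12.89 in urothelium. Proximal tubule replicates 1 and 2 were above all other arrays, and replicate 3 fell among them. The log2 fold change in proximal tubule was 1.40 ± 0.48 (limma adjusted p = 0.0633), which was not called. Without proximal tubule replicate 3 it was 2.02 and called (adjusted p = 0.0152), and it was also called without smooth muscle replicate 2 (1.54, adjusted p = 0.0443) and without urothelium replicate 3 (1.53, adjusted p = 0.0455). With the mean of its 3 probe sets the value was lower, at 0.49, and was not called, and over all 21 alternative settings the adjusted p ran from 0.0152 to 0.659. Against smooth muscle alone proximal tubule was higher by 1.84 ± 0.57 (adjusted p = 0.0359). That pair lost its call in 8 of 21 alternative settings. The value was 0.75 (adjusted p = 0.329) with the mean of the probe sets and 1.14 (adjusted p = 0.615) with label batch as a fixed block, and the call was also lost without proximal tubule replicate 1 or 2 and without smooth muscle replicate 1 or 3. The probe set used here ran apart from 1450225_at, which was above the array median in 3 of 11 arrays and had a log2 fold change of -0.40 ± 0.59 in proximal tubule.

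**Figure D3:**
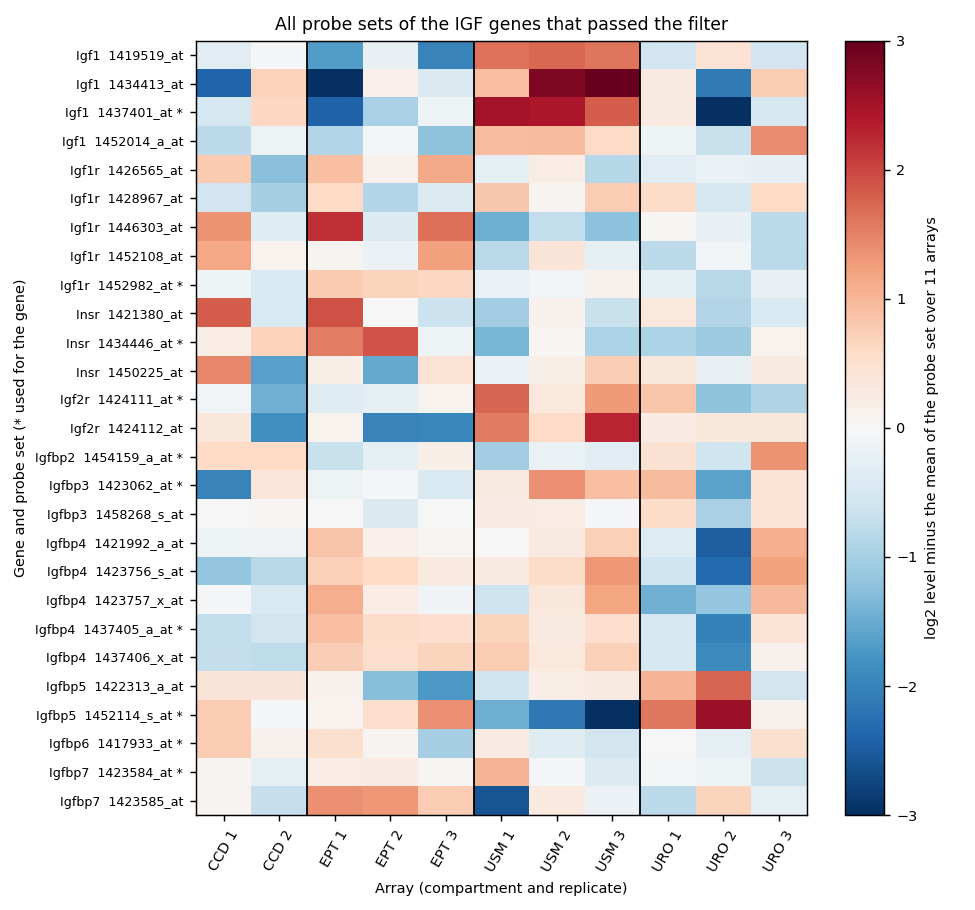
Each of the 27 probe sets of the listed genes that passed the filter, as the log2 level minus that probe set's mean over 11 arrays (colour), with arrays on the horizontal axis and an asterisk at the probe set used for the gene. The Igf1 rows are red in the smooth muscle columns, while the 2 Igfbp5 rows differ there.

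Of the 6 binding proteins, Igfbp5 alone was called in a compartment. Igfbp5, which binds both IGFs and also extracellular matrix, was 12.96, 12.30 and 11.04 in smooth muscle replicates 1 to 3. It was 15.19 and 14.38 in collecting duct, 14.54, 14.95 and 15.79 in proximal tubule and 16.00, 17.02 and 14.57 in urothelium. All 3 smooth muscle arrays were lower than the other 8, and the 3 epithelial compartments overlapped. The log2 fold change in smooth muscle was -3.15 ± 0.53 (SE, n = 3 against 8, limma adjusted p = 0.00113, 95% confidence interval -4.30 to -2.01). Smooth muscle was called lower than each other compartment. Collecting duct minus smooth muscle was 2.69 (limma adjusted p = 0.0328), proximal tubule minus smooth muscle 3.0 (adjusted p = 0.00444) and smooth muscle minus urothelium -3.77 (adjusted p = 0.00241). The collecting duct pair lost its call without collecting duct replicate 1 or 2 and without smooth muscle replicate 2 or 3. Within label batches smooth muscle minus urothelium was -4.76 and -3.05 in batches 1 and 2, and in batch 4 collecting duct and proximal tubule exceeded smooth muscle by 2.89 and 2.25. Urothelium was highest, with a log2 fold change of 1.87 ± 0.53 that was not called (adjusted p = 0.0892) and that was 2.52 and called without urothelium replicate 3 (adjusted p = 0.0229).

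The pattern of Igfbp5 rests on probe set 1452114_s_at. The other, 1422313_a_at, had a log2 fold change of -0.10 ± 0.51 in smooth muscle (limma adjusted p = 0.941, 95% confidence interval -1.21 to 1.01) and lay lower, at 7.65 to 11.11 over the 11 arrays. Over the arrays the 2 probe sets correlated at r = 0.17 (n = 11, a description of arrays that share compartments). Both probe sets have the name endings that Affymetrix gives to probes shared by several transcripts or genes, so a part of related transcripts in either value was not tested. With the mean of both in place of the brighter one, smooth muscle was still called lower, at a log2 fold change of -1.62, and so was its difference from urothelium. The pairs with proximal tubule and collecting duct were called neither under that mean nor with label batch as a fixed block.

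Igfbp4, a binding protein cleaved by Pappa, was bright everywhere and lay at 15.87 to 16.27 in proximal tubule and 15.65 to 16.05 in smooth muscle. The urothelial arrays were at 14.87, 13.35 and 15.78, and those of collecting duct at 14.64 and 14.83. The values put proximal tubule and smooth muscle above collecting duct without overlap. Urothelium overlapped with collecting duct and smooth muscle and lay below proximal tubule without overlap. That last difference, proximal tubule minus urothelium, was 1.35 and was not called (limma adjusted p = 0.11). No compartment was called (proximal tubule 0.93 ± 0.43, limma adjusted p = 0.163). The 5 probe sets of Igfbp4 that passed correlated with each other at r = 0.63 to 0.98 over the 11 arrays, which share compartments.

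Igfbp3, the main carrier of IGFs in the circulation, was 11.66, 12.76 and 12.30 in smooth muscle, 10.94 to 11.33 in proximal tubule, 12.34, 9.78 and 11.80 in urothelium, and in collecting duct 9.39 and 11.76. Its log2 fold change in smooth muscle was 1.22 ± 0.56 (limma adjusted p = 0.184, 95% confidence interval 0.0047 to 2.44), which was not called. The 2 collecting duct arrays differed from each other by more than that. The other Igfbp3 probe set that passed, 1458268_s_at, had a smooth muscle value of 0.18 ± 0.38 (limma adjusted p = 0.841). The sum of 12 endothelial markers, a cell type in which Igfbp3 is often found, was 9018 to 12119 in smooth muscle and 4598 to 11873 in the other arrays, and its part was not tested.

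The remaining 3 binding proteins were called in no compartment and in no pair. Igfbp7, a more distant relative with low affinity for IGFs, lay between 14.40 and 16.06 over all 11 arrays, and its widest difference between compartment means was 0.46 (smooth muscle minus urothelium, 95% confidence interval -0.44 to 1.36). A weaker Igfbp7 probe set, 1423585_at, lay higher in all 3 proximal tubule arrays than in the other 8, by 1.56 ± 0.56, without a call (limma adjusted p = 0.0984). Igfbp2, an abundant fetal binding protein, was 10.41 and 10.40 in collecting duct, 9.15 to 10 in proximal tubule, 8.76 to 9.60 in smooth muscle and 9.20 to 11.16 in urothelium. The collecting duct arrays of Igfbp2 lay above those of proximal tubule and smooth muscle, but no pair was called (collecting duct minus smooth muscle 1.13, adjusted p = 0.269). Igfbp6, which prefers IGF-II, was dim, with 7 of 11 arrays above the array median and levels of 7.29 to 9.06. Its compartment means spanned 8.07 to 8.74, so these arrays do not order the compartments for this gene.

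Over the 6 pairs of compartments, 7 of the 60 member and pair combinations were called, against 9.02% over all genes. By pair they were 1 of 10 for collecting duct with smooth muscle (8.27% of all genes), 3 for proximal tubule with smooth muscle (20.4%), 1 for proximal tubule with urothelium (11.5%) and 2 for smooth muscle with urothelium (7.96%). They were the 3 pairs of Igfbp5, 2 of Igf1 and 1 each of Insr and Igf1r named above, and 5 of the 7 involved smooth muscle with Igf1 or Igfbp5. The count of 7 became 4 without smooth muscle replicate 1, 2 or 3. Over the 27 probe sets and 4 compartments, 6 combinations were called (5.27% over all probe sets). In smooth muscle 5 of 27 were called, 3 of Igf1 and 1 each of Igf2r and Igfbp5 (9.53% over all probe sets), and in proximal tubule 1 of 27, of Igf1 (9.81%). That count was 3 without smooth muscle replicate 1 and 4 without smooth muscle replicate 3 or proximal tubule replicate 3.

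The listed genes did not follow a single pattern over the arrays. Igf1 and Igfbp5 correlated at r = -0.77 and Igf1 and Igf2r at r = 0.67 over the 11 arrays, and Igf1r and Igfbp4 at r = 0.77. These arrays share compartments, scaling and label batches, so the values describe this table. The genes most like Igf1 among all 13614 were Fbn2 (r = 0.98), which encodes a microfibril protein, Sec24d (0.97), a coat protein of transport from the endoplasmic reticulum, and Fat4 (0.97), an atypical cadherin. The genes most like Igf2r were S100a13 (0.92), Rbm15b (0.92) and Lrrc41 (0.91). The genes most like Igfbp5 were Mien1 (0.97), Atp13a2 (0.95), a lysosomal ATPase, and Ptprf (0.95), a receptor phosphatase.

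Among other genes of the pathway, listed by role, 56 of 68 were tested and 13 were called in at least 1 compartment. In smooth muscle 3 were called higher and 4 lower, and in proximal tubule 4 higher and 3 lower. In collecting duct 1 was higher and 1 lower, and in urothelium 1 was higher. These counts are 7, 7, 2 and 1 of 56, beside the shares of all genes given above for each compartment. With label batch as a fixed block 3 of the 17 calls were made by limma, namely Htra1 and Grb14 in smooth muscle and Irs1 in proximal tubule.

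Of the other ligands and carriers, 4 of 8 were tested. Igf2, the fetal IGF and an imprinted gene, was 14.70, 15.23 and 14.30 in urothelium replicates 1 to 3 and 12.70 to 14.17 in the other 8 arrays, without overlap. The difference in urothelium was 1.44 ± 0.33 (SE, limma adjusted p = 0.0371). That call was lost in 13 of 21 alternative settings (adjusted p from 0.0101 to 0.786), among them the removal of any 1 array except smooth muscle replicate 3 or urothelium replicate 3. Igfbp1, a binding protein best known from liver, was 12.33, 13 and 11.88 in proximal tubule replicates 1 to 3 and 5.92, 7.62 and 6.21 in smooth muscle. The urothelial arrays were at 8.81, 6.24 and 10.64, and those of collecting duct at 9.42 and 9.83. Proximal tubule lay above all other arrays (log2 fold change 4.15 ± 0.70, limma adjusted p = 0.00124), while smooth muscle overlapped with urothelium replicate 2 (-3.61 ± 0.70, adjusted p = 0.00313). With label batch as a fixed block neither was called (adjusted p = 0.219 and 0.101). The smooth muscle level of Igfbp1 was dim, and its smooth muscle difference ran from -4.56 to -2.61 over the 21 settings. Its neighbour Igfbp3 showed a proximal tubule value of -0.20 ± 0.56, with no call.

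Of 7 binding protein proteases and their inhibitors, 7 were tested, and the calls fell on Htra1 and Stc1. Htra1, a secreted serine protease that can cleave Igfbp5, was 12.57, 12.99 and 12.78 in smooth muscle replicates 1 to 3 and 8.07 to 10.32 in the other 8 arrays. The smooth muscle arrays did not overlap with the rest, and the log2 fold change was 3.57 ± 0.34 (limma adjusted p = 1.67e-05), a call made in all 21 alternative settings. Htra1 was also lower in collecting duct (-2.14 ± 0.39, adjusted p = 0.0129), a call lost without either collecting duct array. Htra1 was read from an x_at probe set, and the collecting duct call was also lost without x, s and a probe sets (limma adjusted p = 0.0983). Stc1, which encodes a stanniocalcin that inhibits Pappa-type proteases, was 12.97 and 12.09 in collecting duct and 8.71 to 10.66 elsewhere. Its log2 fold change in collecting duct was 2.57 ± 0.45 (adjusted p = 0.0113), a call lost without either collecting duct array, and it was lower in proximal tubule (-1.62 ± 0.40, adjusted p = 0.0133), a call lost without proximal tubule replicate 2. Of 3 binding protein receptors 1 was called, the endocytic receptor Lrp1 in smooth muscle (1.46 ± 0.33, adjusted p = 0.00826), a call lost with the mean of its probe sets and without the 2 arrays of label batch 2.

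**Figure D4:**
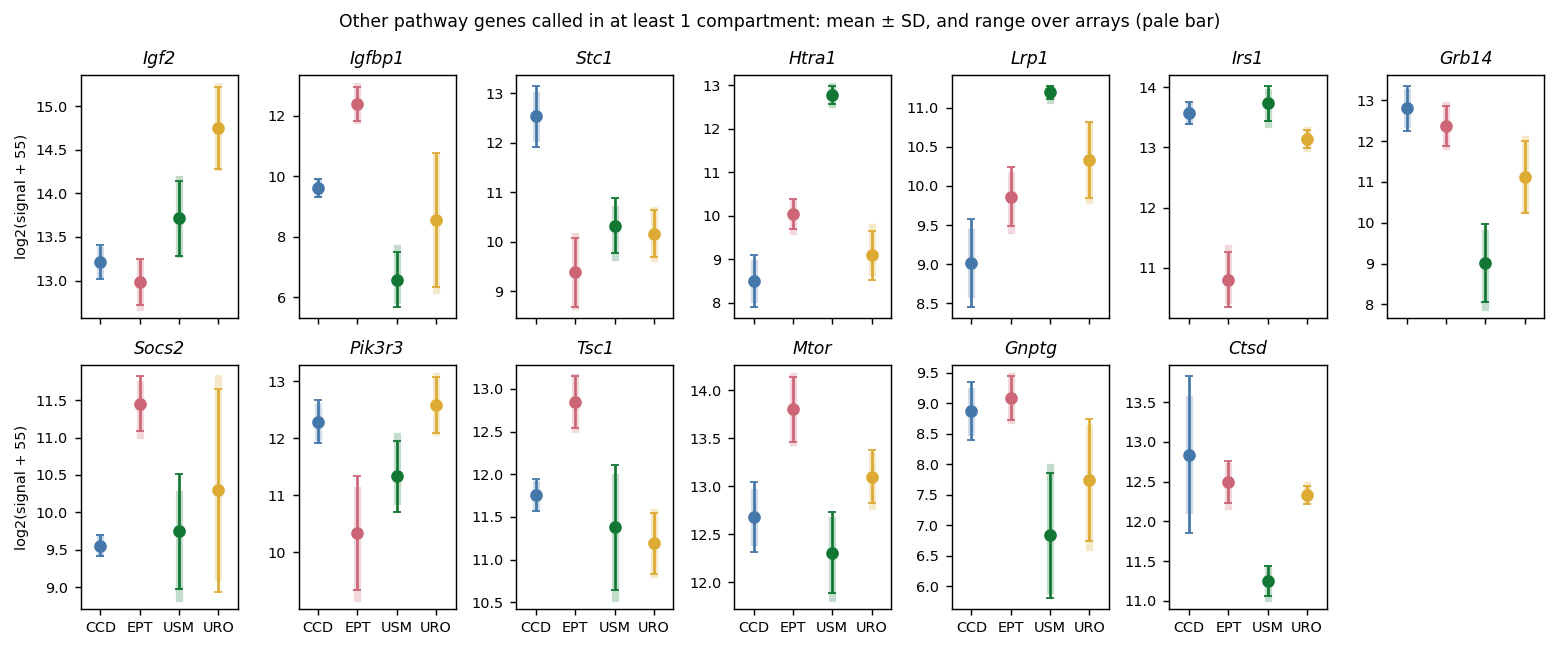
The 13 other pathway genes called in at least 1 compartment, as log2(signal + 55) by compartment. Points and thin bars are the mean ± SD of 2 or 3 arrays, and pale bars span the arrays. Htra1 is highest in smooth muscle (12.57 to 12.99), Irs1 lowest in proximal tubule (10.48 to 11.32) and Igfbp1 highest in proximal tubule (11.88 to 13).

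Downstream of the receptors, 12 of 14 adaptors and negative regulators were tested. Irs1, the docking protein that links Igf1r and Insr to PI3K, was 10.62, 11.32 and 10.48 in proximal tubule replicates 1 to 3 and 12.99 to 13.92 in the other 8 arrays. The groups did not overlap, and the log2 fold change in proximal tubule was -2.68 ± 0.31 (limma adjusted p = 7.54e-05), a call made in all 21 alternative settings. Irs1 was higher in smooth muscle by 1.22 ± 0.31 (adjusted p = 0.0155), a call lost without smooth muscle replicate 1 or 2 and without label batch 2. Grb14, an adaptor that inhibits insulin receptor signalling, was 9.36, 7.93 and 9.75 in smooth muscle and 10.32 to 13.19 elsewhere. Its log2 fold change in smooth muscle was -3.08 ± 0.46 (adjusted p = 0.000515), again a call made in all 21 settings. Socs2, a suppressor of growth hormone signalling, was higher in proximal tubule by 1.59 ± 0.50 (adjusted p = 0.0464), a call lost in 15 of 21 settings, the removal of single arrays among them (adjusted p from 0.00509 to 0.8). Urothelium replicate 3, at 11.79, lay above all proximal tubule arrays, which were at 11.03 to 11.715. The Socs2 value was read from an s_at probe set. Without x, s and a probe sets it was 0.18 (adjusted p = 0.8), while the mean of its probe sets was called (adjusted p = 0.00509).

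Of 18 tested members of the PI3K, AKT and mTOR list (21 in all), 3 were called, all in proximal tubule, where 15.9% of all genes were called. The kinase Mtor was higher by 1.10 ± 0.32 (limma adjusted p = 0.0325) and its inhibitor Tsc1 by 1.41 ± 0.35 (adjusted p = 0.0162). Pik3r3, a regulatory subunit of PI3K, was lower, at a log2 fold change of -1.73 (adjusted p = 0.0156). Its proximal tubule arrays, at 9.20 to 11.10, overlapped with those of smooth muscle, at 10.89 to 12.03. The call was lost for Mtor and Tsc1 without proximal tubule replicate 2 or 3, and for Pik3r3 without proximal tubule replicate 1. For Mtor it was also lost without collecting duct replicate 2 or urothelium replicate 1. For Tsc1 it was also lost with the mean of its probe sets (0.86, limma adjusted p = 0.118). Of the mannose 6-phosphate sorting and lysosomal list 10 of 12 were tested, and 2 were called. Both were lower in smooth muscle, where 9.12% of all genes were called lower. They were Gnptg, a subunit of the enzyme that makes the mannose 6-phosphate tag (-1.73 ± 0.48, adjusted p = 0.0261), and the protease Ctsd, an enzyme sorted by that tag (-1.31 ± 0.34, adjusted p = 0.0176). Gnptg was dim in smooth muscle, at 5.95, 7.96 and 6.61, and its difference ran from -2.45 to -1.03 over the 21 settings. Gnptg lost its call without collecting duct replicate 1 or smooth muscle replicate 1 or 3. Ctsd lost its call without smooth muscle replicate 1 or 2, and both lost it without label batch 2. Hexa, of the same list, went the other way without a call. Its smooth muscle arrays, at 13.65 to 14.30, lay above all other arrays. The 2 tested RNA-binding proteins named for Igf2 mRNA were called in no compartment.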

How the data were processed

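The authors deposited linear intensity values per Affymetrix probe set, for which the submitters' processing notes name GCOS. The 2% trimmed mean was 1500 on every array, and this scaling was kept; detection calls were not used here. From the deposited intensities log2(signal + 55) was computed, where 55 is close to the 20th percentile over all arrays. Symbols came from the platform annotation: of 45101 probe sets, 64 were controls, 34945 had 1 symbol, 932 several and 9160 were unnamed. For 34741 the symbol was checked by Entrez identifier in a RefSeq table (GRCm38.p6), and 0 changed. A gene was read from its probe set with the highest mean among those that passed the filter (29565 probe sets, 13614 genes), so the filter and this choice decide which values stand for a gene. All 11 arrays entered a single fit in limma 3.58.1 under R 4.3.3, with a mean per compartment and 7 residual degrees of freedom. A second fit took all probe sets that passed. The procedure was tested on simulated data. Replicate numbers follow accession order and are names only.

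The listed genes, the role lists, the marker lists and the tests were chosen with earlier results of these data known. Named genes were all 10 listed genes, up to 3 called genes per role list and compartment with the largest moderated t, and the 3 genes most correlated with each called listed gene, without clone-named symbols. Of the role lists 12 genes were not analysed here. Alternatives changed 1 choice at a time: quantile normalization, a pseudocount at the 5th (12) or 40th (190) percentile, omission of the filter, averaging over the probe sets of a gene, dropping probe sets of types x, s and a, the trend and robust options of eBayes, and label batch as a random or a fixed block. Each array was also left out in turn, as were both arrays of label batch 2. The number of arrays limits the precision. Tables and plots used pandas 2.3.3 and matplotlib 3.10.9 under Python 3.11.15.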

Additional observations from a re-analysis of the deposited data

How the results depend on the processing

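In 21 alternative settings no called listed gene or pathway gene changed sign. The smooth muscle calls of Igf1 (log2 fold change 2.37 to 3.61, limma adjusted p from 0.00102 to 0.0318 over 21 settings) and of Igfbp5 (-3.58 to -1.62, adjusted p from 0.000154 to 0.0309 over 20 settings, since it has no probe set outside the x, s and a types) were made in every setting run. The number of listed genes called in proximal tubule, 0 as reported, was 1 with the pseudocount at the 40th percentile, 1 with probe sets averaged per gene and 1 with eBayes trend and robust options. In urothelium that number was 1 with the pseudocount at the 40th percentile. Pairs called, 7 as reported, were 4 with the pseudocount at the 5th percentile, 3 without x, s and a probe sets and 3 with label batch as a fixed block. With that block 3 member probe sets (6 as reported) and 3 pathway calls (17 as reported) were made. The random block had a consensus correlation of 0.0268. Leaving out 1 array at a time gave 0 to 1 listed genes called in proximal tubule, 2 to 3 in smooth muscle, 0 to 1 in urothelium, 4 to 9 pairs, 3 to 7 probe sets and 12 to 20 pathway calls. A lone collecting duct array is then assumed to vary like the other groups. For the replicate numbers, no paired analysis was possible because they follow accession order and are names only. The label batches do hold arrays of different compartments together, and they entered as the block and the within-batch values. The values carry no detection calls, so dim probe sets such as that of Igfbp6 have no stated limit of detection.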
